A study of Homo sapiens with 19 samples.

Results

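KRT7 epithelial cells were described in the PA experiment of a single-cell study of human liver organoids. A cell was a member when it held at least 2 unique molecular identifiers (UMIs, each counted as 1 RNA molecule) of KRT7 and at least 1 of EPCAM, none of COL1A2 or COL3A1, and did not pass a hepatocyte-marker limit. That limit was at least 5 UMIs of AFP, AMBP, AGT, FGB and SERPINA1 together, making up at least 0.3% of the cell's UMIs. Cells with fewer than 500 detected genes or more than 20% mitochondrial counts were left out first. In all, 158 of the 24859 kept cells of the PA experiment were members, against 120240 kept cells in the 19 libraries of the series. The members were thus selected on the measured counts of these 9 gate genes, whose levels are given below as a description without a test.

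The organoids were grown from W01, an established wild-type human pluripotent stem cell line. Per the labels, all 4 libraries came from organoids kept on an orbital shaker for 20 days and then treated for 5 days, so that every library is from day 25. The PA group (n = 2 libraries) received PA at 500 µM and the PA control group (n = 2) was labelled as the control for PA, with its vehicle not stated. The labels do not spell out PA. Such organoids hold no blood supply, and the labels name 1 cell line, so that differences between donors cannot be seen. Nothing in the labels says whether the libraries of a group came from separate cultures, and p-values therefore measure only the spread between libraries, which may be technical.

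KRT7 encodes keratin 7, a type II intermediate filament protein of simple and ductal epithelia. In liver it marks cholangiocytes, the cells lining the bile ducts, and also hepatocytes that take on biliary features, whereas mature hepatocytes carry KRT8 and KRT18 without it. Outside the liver it is found in bladder, lung, breast and other ductal linings. EPCAM is an adhesion molecule of most simple epithelia and of hepatic progenitor cells. In GRCh38, KRT7 lies on chromosome 12 (52232520 to 52252186) and EPCAM on chromosome 2 (47345158 to 47387601).

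Between 3205 and 8249 cells of each library were kept, of 4051 to 9073 deposited barcodes. Their depth differed within each group: the median kept cell had 1747 UMIs in PA control 1, 7058 in PA control 2, 2549 in PA 1 and 5990 in PA 2. No member barcode occurred in a second library, while kept cells of different libraries shared 2 to 22 barcodes a pair. Summed over members, the depth was 11229 UMIs in PA control 1, 629267 in PA control 2, 127484 in PA 1 and 573288 in PA 2. A single UMI in the PA control 1 members was thus worth 89.1 CPM (a gene's count on the usual library-size scale, the library size being all UMIs summed over the cells of a class in a library), and a count of 0 there allows up to 267 CPM. PA control 1 stands apart on this account. The share and the PA comparison are given with and without it, and marker levels of its members rest on 5 cells.

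Members made up a small share of every library. There were 5 among 3205 kept cells of PA control 1 (0.156%, 95% exact binomial interval 0.0507 to 0.364), 52 among 5742 of PA control 2 (0.906%, 0.677 to 1.19), 32 among 7663 of PA 1 (0.418%, 0.286 to 0.589) and 69 among 8249 of PA 2 (0.836%, 0.651 to 1.06). The intervals cover counting error only. The PA libraries lay between the control libraries. The mean share was 0.627% ± 0.296 (SD, n = 2) with PA and 0.531% ± 0.530 (SD, n = 2) in control, a difference of 0.0962 percentage points that did not exceed the spread between libraries (exact permutation test, two-sided, p = 1, with 0.333 the smallest this design allows). Leaving out PA control 1 turned the sign of the difference, to -0.279 points.

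Depth moved with the share, the libraries having the same order in both. A deeper cell reaches 2 KRT7 UMIs more easily, but it is also more easily excluded by a collagen UMI. What each rule of the gate added to the differences in share was not tested. After each cell was thinned to 1500 UMIs and the gate applied again, 0 of 1964 cells passed in PA control 1, which allows a share of up to 0.153% by a floor of 3 counts and of up to 0.188% by the exact interval. The thinned shares of the other libraries were 0.188% in PA control 2 (9 of 4793 cells), 0.218% in PA 1 (13 of 5963) and 0.197% in PA 2 (15 of 7630), within each other's counting intervals. Shallower cells were left out, 1241, 949, 1700 and 619 of them in the same order of libraries. Both PA libraries were then above both controls, by 0.113 percentage points on average. The exact permutation p of 0.333 is the smallest this design allows, so that the design could not call such a difference.

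**Figure D1:**
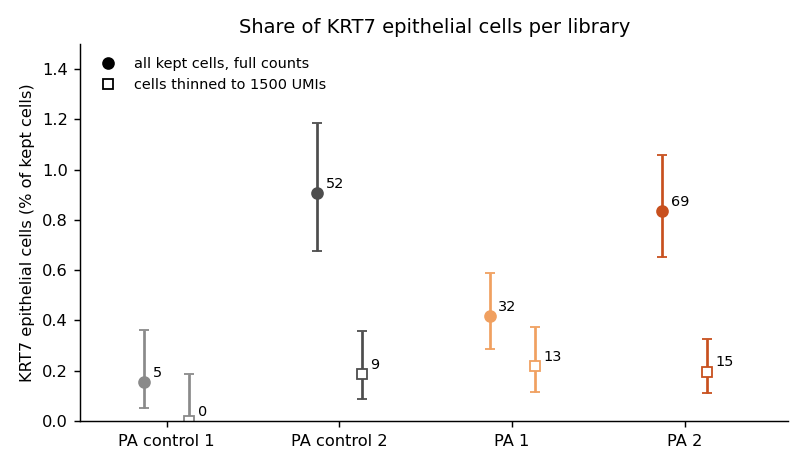
Share of KRT7 epithelial cells in percent of kept cells (y axis) in each library (x axis), with full counts (filled circles) and after thinning each cell to 1500 UMIs (open squares). Bars are 95% exact binomial intervals and the figures beside the points are numbers of members: with full counts PA control 1 (0.156%) and PA control 2 (0.906%) enclose both PA libraries, and after thinning PA control 2, PA 1 and PA 2 sit between 0.188% and 0.218%.

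Most KRT7 RNA of these organoids lay outside the members. Of all KRT7 UMIs in kept cells, members held 2.22% in PA control 1, 5.62% in PA control 2, 4.83% in PA 1 and 4.51% in PA 2. Cells past the hepatocyte-marker limit with no COL1A2 or COL3A1 UMI, called hepatocyte-marker cells here, held 73.6%, 69.8%, 70.9% and 59.99% of them and made up 56.9% to 67.4% of kept cells. The gates were counted in turn among cells with at least 2 KRT7 UMIs (116, 732, 385 and 1136 in PA control 1, PA control 2, PA 1 and PA 2). Lack of EPCAM removed 25, 16, 64 and 53 of them. Of the EPCAM-positive rest, the hepatocyte-marker limit removed 82, 593, 260 and 891, and a collagen UMI then 4, 71, 29 and 123. Cells without EPCAM that also passed the hepatocyte-marker limit were counted under EPCAM only. Collagen-positive cells (both COL1A2 and COL3A1 detected with at least 3 UMIs together, no EPCAM, below the hepatocyte-marker limit) are not an epithelial class, and 1.10% to 4.48% of them also had 2 or more KRT7 UMIs at median depths of 1857 to 6037 UMIs. At 1500 UMIs a cell that share was 0.280% to 2.78%, against 1.92% to 3.79% of hepatocyte-marker cells. Hepatocyte-marker cells, not members, were thus below collagen-positive cells, a class that should lack KRT7, in PA control 1 (1.92% against 2.78%). They were above them in PA control 2 (3.79% against 0.280%), PA 1 (2.59% against 1.37%) and PA 2 (2.19% against 1.86%). The collagen-positive shares come from 72, 357, 146 and 322 cells of PA control 1, PA control 2, PA 1 and PA 2. They rest on few positive cells and have no interval, so that the order within a library is uncertain.

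**Figure D2:**
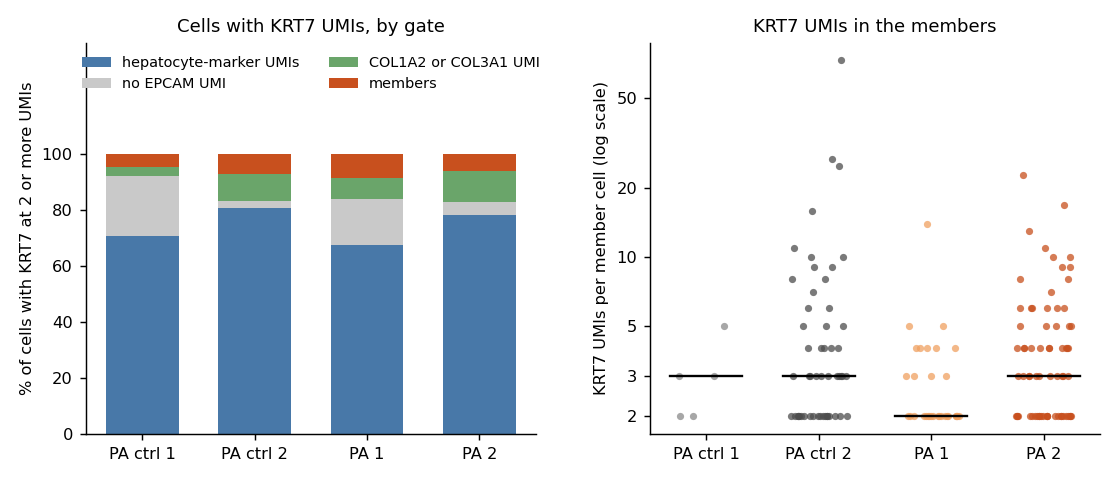
Left, the cells of each library with at least 2 KRT7 UMIs, in percent (y axis), split by the gate that removed them or by membership. Lack of EPCAM was counted first, then the hepatocyte-marker limit, then collagen. Counted so, the hepatocyte-marker limit took 67.5% to 81.0% of the cells. Right, KRT7 UMIs per member cell on a log axis, 1 point a cell with the median as a line: medians were 2 or 3 in every library, and the highest value was 73 in PA control 2.

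The KRT7 threshold cut through a continuous range of counts. Members had 2 to 5 KRT7 UMIs in PA control 1 (median 3), 2 to 73 in PA control 2 (median 3), 2 to 14 in PA 1 (median 2) and 2 to 23 in PA 2 (median 3). Exactly 2 UMIs were found in 2 of 5, 19 of 52, 20 of 32 and 25 of 69 members. Just outside the gate, 23, 64, 80 and 86 cells met every other rule with a single KRT7 UMI, and 418, 781, 1091 and 1247 had none. Summed over members, KRT7 stood at 1336, 526, 753 and 546 CPM and EPCAM at 534, 830, 706 and 813 CPM in PA control 1, PA control 2, PA 1 and PA 2. EPCAM in hepatocyte-marker cells was 633 to 881 CPM, and members exceeded them in PA 1 alone (706 against 638 CPM). SERPINA1, the most abundant of the hepatocyte gate genes, remained at 1012 to 1692 CPM in members, against 18311 to 25453 CPM in hepatocyte-marker cells and 94.2 to 188 CPM in collagen-positive cells.

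Fixed marker lists described the members as simple epithelium, with a bile duct list sum no higher than in KRT7-negative EPCAM cells. The list of simple epithelial keratins and junction genes, without the gate genes, summed to 8638, 15405, 10888 and 10780 CPM in PA control 1, PA control 2, PA 1 and PA 2. In the EPCAM cells with KRT7 at 0 that met all other rules, the same list summed to 6500 to 12134 CPM, and in collagen-positive cells to 1631 to 2143 CPM. Members were thus epithelial by this list, and somewhat above the KRT7-negative EPCAM cells of their own library. The bile duct list summed to 2315, 3560, 2753 and 3546 CPM in members and was lower than in the KRT7-negative EPCAM cells of each library (4558, 4224, 3434 and 4255 CPM). SOX9, the transcription factor that marks bile duct precursors, was at 0 in members of PA control 1 and PA 1 and at 49.3 and 66.3 CPM in PA control 2 and PA 2. A count of 0 allows up to 267 CPM in PA control 1 and 23.5 CPM in PA 1. CFTR, the chloride channel of duct cells, stood at 0, 219, 196 and 124 CPM. Both genes are examples, given without their levels in other classes. CD9, a tetraspanin of ductal and other epithelial membranes, went the other way. It stood at 178, 159, 118 and 321 CPM in members, against 30.9, 45.6, 46.3 and 113 CPM in KRT7-negative EPCAM cells. How many bile duct genes went each way was not counted. Of the 20 bile duct genes, 13, 1, 6 and 2 were at 0 in members of PA control 1, PA control 2, PA 1 and PA 2. Apart from the gate genes, which the rule fixed, the members carried simple epithelial genes, and the bile duct list did not set them apart.

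Markers of other classes were present at differing levels. The immune list had 7, 6, 6 and 5 of its 8 genes at 0 in members of PA control 1, PA control 2, PA 1 and PA 2, PTPRC among them in each, while LYZ, the lysozyme gene, stood at 356, 168, 196 and 265 CPM. The endothelial list had 6 or 7 of 8 genes at 0, with PECAM1 above 0 in PA control 2 alone (4.77 CPM) and EGFL7 at 267, 119, 118 and 108 CPM. On the mesenchymal list DCN was at 0 in every library, but VIM stood at 891, 717, 494 and 480 CPM and TAGLN, an actin-binding protein of smooth muscle, at 1158, 496, 345 and 199 CPM. That list summed to 724 to 2137 CPM in members, against 382 to 789 CPM in KRT7-negative EPCAM cells and 7519 to 11098 CPM in collagen-positive cells.

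Hepatocyte and gut genes were found in many members. ALB was found in 1 of 158, in PA 2, but also in only 3.78%, 7.22%, 3.74% and 6.34% of hepatocyte-marker cells of PA control 1, PA control 2, PA 1 and PA 2. At least 3 genes of the hepatocyte list were detected in 0 of 5, 34 of 52, 8 of 32 and 40 of 69 members. At 1500 UMIs a cell that share was 15.4% in PA control 2, 6.25% in PA 1 and 15.9% in PA 2, against 25.3% to 34.3% of hepatocyte-marker cells. In KRT7-negative EPCAM cells of PA control 2, PA 1 and PA 2 it was 11.4%, 17.6% and 12.7%. The gut list summed to 534, 1936, 981 and 2885 CPM, against 606 to 762 CPM in KRT7-negative EPCAM cells and 1882 to 2762 CPM in hepatocyte-marker cells. At least 3 of its genes were detected at 1500 UMIs in 7.69%, 15.6% and 13.0% of members of PA control 2, PA 1 and PA 2, and in 3.67%, 4.55% and 6.47% of KRT7-negative EPCAM cells. Hepatocyte-marker cells of these libraries had 12.8%, 11.5% and 14.9%, so that members were above them in PA 1 alone.

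The summed squamous and basal list was higher in members than in KRT7-negative EPCAM cells of every library, and CHGA was higher in all but PA control 1. The squamous and basal list summed to 8460, 830, 1734 and 2388 CPM in members of PA control 1, PA control 2, PA 1 and PA 2, against 466 to 639 CPM in KRT7-negative EPCAM cells and 503 to 1193 CPM in collagen-positive cells. In PA control 1 a single member held 70 UMIs of the list. Not every gene followed the sum: in PA control 2, KRT5, KRT13 and KRT6A stood at 0, 1.59 and 0 CPM in members. KRT7-negative EPCAM cells there held 1.04, 2.25 and 0.86 CPM of them, while members were higher in the other libraries. KRT17, a keratin of basal epithelial cells, stood at 2939, 165, 314 and 127 CPM, with 30 of its 33 UMIs in PA control 1 and 98 of 104 in PA control 2 in 1 cell each, against 25.3 to 36.3 CPM in KRT7-negative EPCAM cells and 115 to 321 CPM in collagen-positive cells. TP63, the master regulator of basal epithelium, was nonetheless detected only in PA 2 members, at 1.74 CPM, and KRT14 was at 0 in all 4. CHGA, the chromogranin of neuroendocrine secretory granules, stood at 0, 667, 290 and 1170 CPM against 143 to 258 CPM in the KRT7-negative EPCAM cells. Hepatocyte-marker cells held 493 to 1128 CPM of CHGA, so that the members were not above them in every library.

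**Figure D3:**
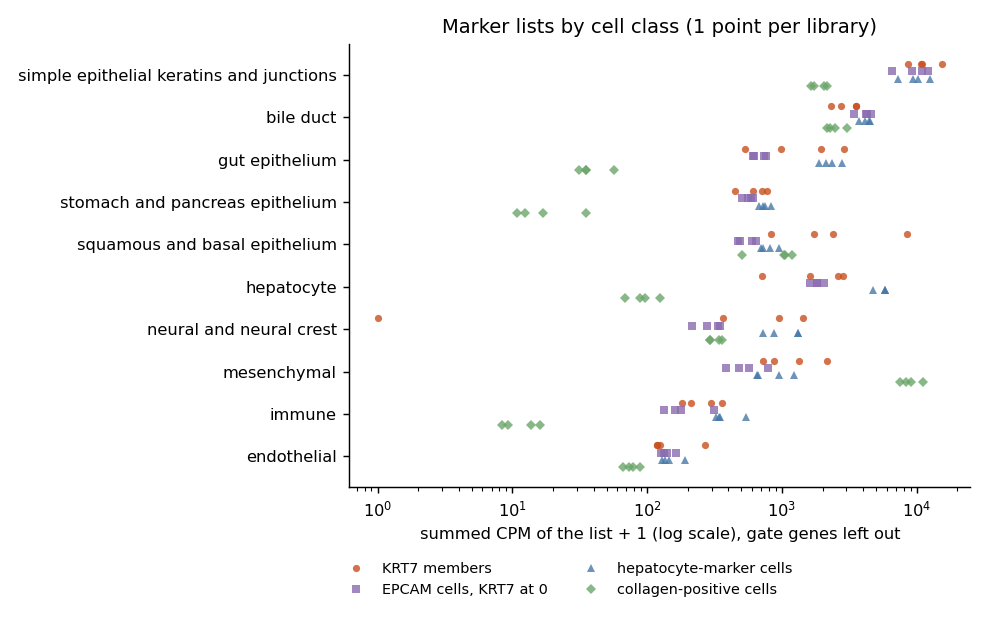
Summed CPM plus 1 on a log axis (x) of 10 fixed marker lists (y), without the gate genes, in members and 3 other cell classes, 1 point per library. Members (circles) overlap EPCAM cells without KRT7 (squares) for the simple epithelial list, lie above them for the squamous and basal list in every library, and lie far below collagen-positive cells (diamonds) for the mesenchymal list.

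At least 3 genes of the squamous and basal list were detected in 3 of 5, 33 of 52, 11 of 32 and 45 of 69 members with full counts, and at 1500 UMIs a cell in 9.62%, 15.6% and 29.0% of members of PA control 2, PA 1 and PA 2. In KRT7-negative EPCAM cells of those 3 libraries the thinned share was 1.13%, 1.88% and 3.44%, and in hepatocyte-marker cells 6.38%, 4.39% and 7.80%. At least 2 UMIs of KRT5 and KRT17 together were found in 2 of 5 members of PA control 1, 2 of 52 of PA control 2, 6 of 32 of PA 1 and 11 of 69 of PA 2. At 1500 UMIs a cell, the share was 1.92% of members in PA control 2, 15.6% in PA 1 and 4.35% in PA 2, against 0.443% to 1.20% of KRT7-negative EPCAM cells and 2.24% to 8.33% of collagen-positive cells in the 4 libraries. At least 3 CHGA UMIs were present in 0 of 5, 6 of 52, 1 of 32 and 6 of 69 members. CDX2, the homeobox factor of gut epithelium, was detected in 0 of 5, 26 of 52, 8 of 32 and 16 of 69 members. At equal depth its share was 9.62%, 9.38% and 5.80% of members in PA control 2, PA 1 and PA 2, close to the 13.1%, 10.98% and 6.72% of KRT7-negative EPCAM cells. The members share a gate rather than 1 profile, and the genes of this paragraph were chosen after their values were seen.

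Within the deeper libraries other lists varied with the KRT7 count of the members, not always in order. In PA control 2 the 17 members with 5 or more KRT7 UMIs had 1456 CPM of the squamous and basal list, and the 19 members with 2 UMIs had 458 CPM. Of the 331 list UMIs behind the former value, 98 were KRT17 UMIs of 1 cell. The same list stood at 3162 CPM in the 22 PA 2 members with 5 or more KRT7 UMIs and at 1607 CPM in the 25 with 2. The neural and neural crest list, which is mostly CHGA here, stood at 571, 2461 and 26.4 CPM in PA control 2 members with 2, 3 to 4 and 5 or more KRT7 UMIs, and at 2842, 1212 and 231 CPM in those of PA 2. Chemokines and cytokines were lowest in the middle group of both libraries, at 581, 347 and 1549 CPM in PA control 2 and 2891, 2018 and 4349 CPM in PA 2. These are sums over cells of 1 library each and carry no test.

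Genes that reached 50 CPM in members of all 4 libraries set the members apart only weakly. Of the 1555 genes at 50 CPM or more in members of each library, 0 were at least 2-fold higher in members than in all other kept cells of every library (pseudocount 1 CPM). In PA control 1 a single UMI met that level. A gene with 0 UMIs in the 5 members of PA control 1, such as KRT15, was left out. The highest lowest-library ratio belonged to TNNC1, the calcium-binding subunit of slow muscle troponin, at 1.71-fold to 1.90-fold, with 89.1, 118, 157 and 87.2 CPM in members. CD9, a tetraspanin of ductal and other epithelial membranes, followed at 1.67-fold to 2.39-fold, and UCP2, a carrier of the inner mitochondrial membrane, at 1.65-fold to 3.46-fold. MUC1, a transmembrane mucin of the apical surface, was 1.45-fold to 2.59-fold higher. KRT19, the usual partner of KRT7 in duct cells, stood at 1069, 2048, 1600 and 1580 CPM and was 1.37-fold to 1.68-fold higher. UPK1B, a uroplakin of bladder lining, was 1.31-fold to 3.30-fold higher. Other leading genes were LIPH, SLC44A1, B4GALT5, CKB, EFNB2, METTL21A, SLC16A3, PPP1R14A, EIF6, TXNIP, REXO2, ABHD12 and EPS8L2, at lowest-library ratios of 1.299 to 1.55. KRT7-negative EPCAM cells held 65.5, 125, 178 and 93.4 CPM of TNNC1, more than members in all but PA control 1. They also exceeded members for MUC1 in PA 1 (97.6 against 94.1 CPM), and for CKB, TXNIP and EPS8L2 in some libraries. CD9, UCP2, KRT19 and UPK1B were lower in them than in members of every library. Since the gate chose cells on expression and depth, the ratios to all other kept cells are a description. In PA control 1 each rests on few counts, such as 1 UMI for TNNC1.

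PA was then compared with control over the summed counts of members. Of 4848 genes tested, 10 passed an adjusted p of 0.05 in edgeR's quasi-likelihood test (0.206% of those tested), 9 higher and 1 lower with PA, and 73 had an unadjusted p under 0.05. Those higher were the chemokine genes CXCL1 and CCL20, the lipid-binding genes FABP7 and APOA2, the basal keratin KRT15, the calgranulin S100A9, the gut gene PHGR1, the secreted phosphoprotein SPP1 and the long non-coding RNA IGFL2-AS1. AKAP12, a scaffold protein that binds protein kinase A, was lower. In 3 of the 10 (FABP7, IGFL2-AS1 and S100A9) the groups overlapped, because PA control 1 was above PA 1 or PA 2, on 1, 2 and 8 UMIs. The other 6 higher genes had every PA library above every control library, as did 9.88% of all genes tested. For CXCL1, CCL20, KRT15, PHGR1 and SPP1, PA control 1 was at 0, which allows up to 267 CPM. Their PA 1 values were 54.9 to 110 CPM, so that PA 1 could not be placed above PA control 1. Calls depended on single libraries. Without PA control 2, 5 genes passed and 0 of the 10 were among them, without PA control 1 there were 41 with all 10 included, without PA 1 there were 13 with 3 of the 10 (FABP7, CCL20 and CXCL1), and without PA 2 there were 23 with AKAP12 alone of the 10. DESeq2 called 1 gene, APOA2.

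CXCL1 and CCL20 are secreted ligands, CXCL1 drawing neutrophils through the receptor CXCR2 and CCL20 drawing CCR6-bearing lymphocytes and dendritic cells. CXCL1 (chromosome 4, 73869393 to 73871308) stood at 0 CPM in PA control 1, 63.6 in PA control 2, 94.1 in PA 1 and 872 in PA 2. PA 2 was far above the other libraries, and PA 1 above PA control 2 by less than a doubling. The fitted difference was 3.30 ± 0.68 (log2 fold change ± SE, adjusted p = 0.00173). It was 0.72 without PA 2 (adjusted p = 1.00) and did not pass without PA control 2 (adjusted p = 0.329, the control then being at 0). With members chosen on thinned cells it was 1.19 (adjusted p = 0.998). CXCL1 was detected in 0 of 5, 11 of 52, 6 of 32 and 30 of 69 members, and 171 of the 500 CXCL1 UMIs of PA 2 lay in 1 cell. CCL20 (chromosome 2, 227805739 to 227817564) stood at 0, 36.6, 70.6 and 855 CPM in the same order. It showed the same order of libraries, with 7 of 52, 4 of 32 and 25 of 69 positive members outside PA control 1, and a fitted difference of 3.98 ± 0.73 (adjusted p = 0.000117). Without the cell of highest count in each library, CXCL1 stood at 0, 35.7, 72.6 and 593 CPM and CCL20 at 0, 14.6, 40.9 and 702 CPM, so that neither rested on a single cell. The difference between the PA libraries was larger than that between PA 1 and PA control 2 for both genes.

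The other chemokines on the fixed list did not pass the test. Of its 23 genes 10 were tested after the low-count filter, and 2 rose and 0 fell; 9 of the 10 differences were positive, with a median of 1.46 on the log2 scale. Over all genes 0.206% were called, 2842 of 4848 differences were positive and the median was 0.10. CXCL2 stood at 89.1, 30.2, 23.5 and 244 CPM (adjusted p = 0.257), where 89.1 CPM is 1 UMI. CXCL3 stood at 0, 102, 62.7 and 356 CPM and CXCL8 at 0, 42.9, 7.84 and 152 CPM, each with PA 1 below PA control 2 and an adjusted p of 1.00. PA 2 was thus the highest library for all 5 of these chemokines.

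Promoter sequences of the 2 called chemokines and of the near-identical CXCL2 and CXCL3 are shown because the 4 share a stretch that resembles the binding motif of NF-kB, the factor best known for inducing them. The stretches are the 80 bases from 110 to 31 bases before the RefSeq start (GRCh38.p14), 5′ to 3′ on the gene's strand, with matches to the motif (GGG, any 2 bases, then TTTCC) or its reverse complement in capitals.
CXCL1 (chr4:73869283-73869362, plus strand): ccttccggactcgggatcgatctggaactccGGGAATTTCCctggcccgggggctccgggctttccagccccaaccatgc
CXCL2 (chr4:74099226-74099305, minus strand): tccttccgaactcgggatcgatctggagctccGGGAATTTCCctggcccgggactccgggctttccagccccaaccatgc
CXCL3 (chr4:74038720-74038799, minus strand): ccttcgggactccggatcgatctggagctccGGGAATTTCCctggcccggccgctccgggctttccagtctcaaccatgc
CCL20 (chr2:227813732-227813811, plus strand): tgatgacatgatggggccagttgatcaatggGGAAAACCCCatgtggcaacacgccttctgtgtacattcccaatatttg

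The motif was searched on both strands in the 250 bases before each RefSeq start. It was found in 1.73% of 35116 promoters, in 2.34% of 3930 promoters of tested genes and in 9 of the 17 promoters matched to the chemokine and cytokine list. The promoter of CXCL8, not shown, held no match. Of the 10 called genes 7 had a promoter in the table, and CXCL1 and CCL20 held the motif, as did AKAP12 at 1 of its 3 listed starts. A match is a run of letters and says nothing of binding in these cells. CXCL1, CXCL2 and CXCL3 are also alike in their transcripts, so that reads of one may have been counted to another.

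The same chemokines were read in other cell classes of these libraries. In hepatocyte-marker cells CXCL1 stood at 83.3, 88.3, 352 and 706 CPM and CCL20 at 71.1, 42.9, 385 and 1049 CPM, with both PA libraries above both controls. In KRT7-negative EPCAM cells CXCL1 stood at 51.9, 69.1, 245 and 535 CPM and CCL20 at 40.8, 29.4, 200.05 and 626 CPM, in the same order of libraries. In PA 1 the KRT7 members stood below both of these classes, at 94.1 CPM of CXCL1 and 70.6 CPM of CCL20. The test of the difference of PA effects between KRT7 members and hepatocyte-marker cells gave 0.16 ± 0.72 for CXCL1 and -0.57 ± 0.78 for CCL20 (log2 ± SE), both with an adjusted p of 1.00 in edgeR. A p that misses the threshold does not show that the effects were alike. NFKBIA, the inhibitor that NF-kB induces as its own brake, stood at 623, 181, 282 and 298 CPM in members and did not pass the test (0.43 ± 0.61), its value in PA control 1 being 7 UMIs. Of the 22 genes on the NF-kB feedback list 12 were tested and none passed, with a median of 0.44.

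**Figure D4:**
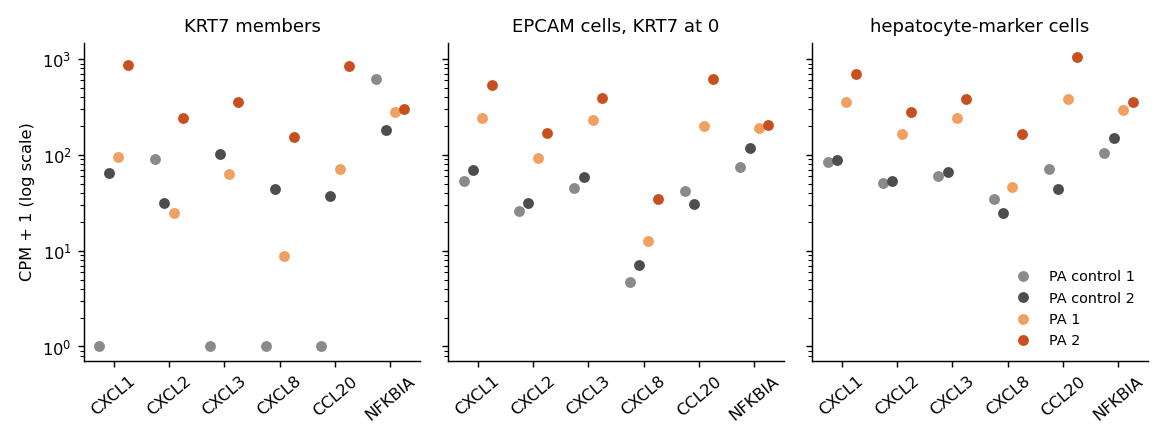
CPM plus 1 on a log axis (y) of 5 chemokine genes and NFKBIA (x) in 3 cell classes, 1 point per library. In EPCAM cells without KRT7 and in hepatocyte-marker cells both PA libraries lie above both controls for every gene shown, whereas in KRT7 members PA 1 lies below PA control 2 for CXCL2, CXCL3 and CXCL8 and PA 2 alone is high.

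Among lipid-binding genes, FABP7 encodes a fatty acid binding protein best known from brain and APOA2 an apolipoprotein of high-density lipoprotein made by hepatocytes. FABP7 had 1, 0, 1 and 166 UMIs in members of PA control 1, PA control 2, PA 1 and PA 2, and the 166 lay in 10 of 69 cells. Only PA 2 was high. Pooled over libraries, the ratio of PA to control was 153, with a 95% counting interval of 27.0 to 6064 that ignores the spread between libraries. The fitted difference, no estimate of a fold at such control counts, went from 6.46 to 9.34 without PA control 1 and to 1.72 without PA control 2 (adjusted p = 0.805). APOA2 stood at 178, 93.8, 1271 and 928 CPM, a difference of 3.61 ± 0.69 (adjusted p = 0.000253), but 1.86 with members chosen on thinned cells (adjusted p = 0.701) and 2.20 with KRT7 at 3 or more UMIs (adjusted p = 0.694). Both PA libraries were above both controls, but 155 of the 162 UMIs of PA 1 lay in 1 cell, and without the highest cell of each library APOA2 stood at 0, 64.8, 57.8 and 639 CPM. In hepatocyte-marker cells APOA2 stood at 1441, 736, 1335 and 1731 CPM, with the groups overlapping. The hepatocyte list, without the gate genes, summed to 712, 1618, 2840 and 2599 CPM in members with APOA2 counted, and to 534, 1524, 1569 and 1671 CPM without it, where PA control 2 was close to both PA libraries.

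Other called genes were seen mainly in PA 2 or in few cells. KRT15, a keratin of basal and progenitor cells, stood at 0, 7.95, 54.9 and 159 CPM (4.004 ± 0.86, adjusted p = 0.00304), in 0, 5, 3 and 16 members. S100A9, a calcium-binding alarmin of squamous epithelium and myeloid cells, stood at 712, 0, 1043 and 358 CPM. PA control 1 was thus above PA 2, on 8 UMIs of S100A9 that all lay in 1 cell. In PA 1, 85 of its 133 UMIs were in 1 cell. Its fitted difference went from 3.76 to 11.29 without PA control 1, where the control was at 0 UMIs and the fit is no estimate of a fold, and to 0.72 without PA control 2 (adjusted p = 0.849). IGFL2-AS1 had 2, 0, 1 and 92 UMIs, or 178, 0, 7.84 and 160 CPM, so that PA control 1 was the highest library on 2 UMIs. Its pooled ratio was 42.5, with a counting interval of 11.4 to 356 that ignores the spread between libraries. The groups overlapped by CPM, so that this ratio is no estimate of a PA effect. As an antisense gene IGFL2-AS1 cannot be told apart from its partner unless counting used the strand, which the sources used here do not give. The squamous and basal list had 14 of 20 genes tested, 1 called higher (KRT15), and a median of 0.93, against 0.10 over all genes, while members with KRT5 or KRT17 were 2 of 5, 2 of 52, 6 of 32 and 11 of 69, and their part in these results beyond the alternative given next was not tested. Leaving those members out, an alternative added after seeing the data, left 3 called genes, of which APOA2 and CXCL1 were among the 10. Only 4 of the 10 still met the count filter there; the other two, PHGR1 (2.85, adjusted p = 0.0515) and SPP1 (2.74, adjusted p = 0.0942), kept differences of similar size.

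PHGR1, a small gene of gut epithelium, stood at 0, 74.7, 102 and 645 CPM (2.72 ± 0.65, adjusted p = 0.0201), and SPP1, the secreted osteopontin of bile duct cells, at 0, 63.6, 110 and 506 CPM (2.65 ± 0.65, adjusted p = 0.0271). In both, PA 2 was high and PA 1 near PA control 2. Without PA 2 the differences were 0.70 for PHGR1 and 1.00 for SPP1 (adjusted p = 1.00 for both), and with a stricter cell filter they were 0.36 (adjusted p = 1.00) and 2.36 (adjusted p = 0.104). PHGR1 was detected in 5 of 52, 2 of 32 and 13 of 69 members, and 12 of the 13 UMIs in PA 1 came from 1 cell. SPP1 was detected in 12 of 52, 4 of 32 and 21 of 69 members, with 114 of 290 UMIs of PA 2 in 1 cell. The gut list had 8 of 18 genes tested with a median of 0.12, and the bile duct list 11 of 20 with a median of 0.13, both near the 0.10 of all genes. AKAP12 stood at 89.1, 119, 0 and 17.4 CPM, the only called gene with both PA libraries below both controls, a separation that 15.1% of all genes showed (fell by 2.89 ± 0.74 on the log2 scale, adjusted p = 0.0472). Its value in PA control 1 was 1 UMI, and its 75 UMIs in PA control 2 were in 9 cells, 34 of them in 1. Without the highest cell of each library the groups overlapped. The call was lost without PA 1, with DESeq2 and with the replicate block (adjusted p = 1.00 for the last 2). It was also lost with doublet removal (0.0660), KRT7 at 3 or more UMIs (0.0555) and no low-count filter (0.241). The fitted AKAP12 difference was -2.37 or lower in all 10 alternatives that tested it. The mesenchymal list summed to 2137, 1343, 871 and 724 CPM in members, lower with PA in both libraries, and AKAP12 stood at 170 to 275 CPM in collagen-positive cells; the part of such RNA in the result was not tested.

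**Figure D5:**
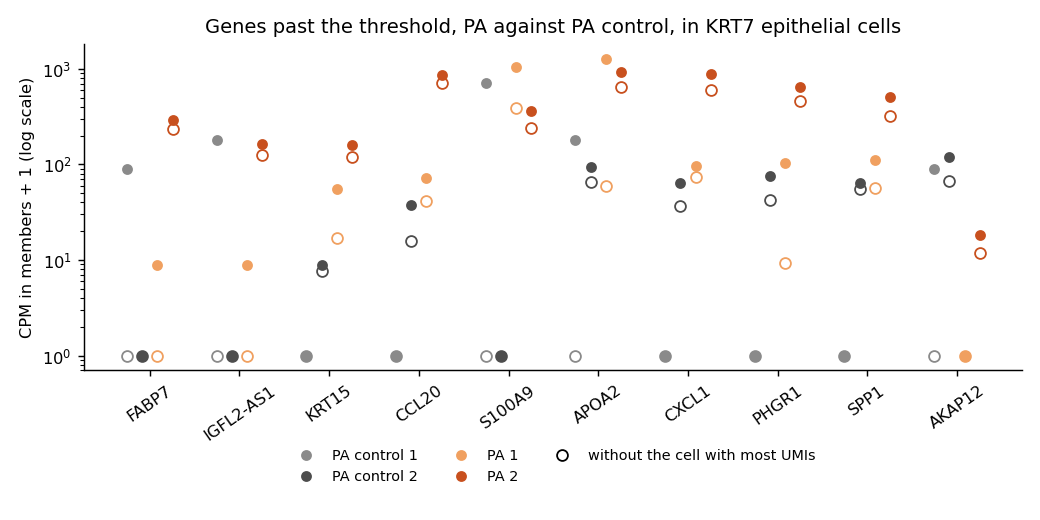
CPM plus 1 on a log axis (y) of the 10 genes past the threshold (x) in members of each library, with full counts (filled) and without the cell of highest count in that library (open). PA 2 is the highest library for 6 of the 10 genes, and the open points of PA 1 drop below PA control 2 for APOA2 and PHGR1.

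Genes next in rank did not pass and are given as values. TFF1, a trefoil peptide of stomach and inflamed mucosa, stood at 0, 19.1, 165 and 101.2 CPM (adjusted p = 0.0658), with both PA libraries above both controls. Its count of 0 in PA control 1 allows up to 267 CPM, more than either PA library held. The cornified envelope genes SPRR2F and SPRR3 had 1, 1, 2 and 38 UMIs and 1, 0, 3 and 29 UMIs. That is 89.1, 1.59, 15.7 and 66.3 CPM and 89.1, 0, 23.5 and 50.6 CPM, with PA control 1 highest on 1 UMI for each. SPRR2F belongs to a cluster of near-identical SPRR2 copies, so that its count is uncertain. In the downward direction KRT17 (2939, 165, 314 and 127 CPM), KRT6A (1425, 0, 102 and 19.2 CPM) and CCND2 (89.1, 297, 62.7 and 120.4 CPM) had overlapping groups or rested on PA control 1. KLC1, a kinesin light chain, stood at 0, 95.3, 23.5 and 29.6 CPM. PLCG2, HIST1H1E, IRF2BPL, UNC45A, AXL, UHRF2 and CDC27 had both PA libraries below both controls at 1 to 3 UMIs in PA control 1, as did 15.1% of all genes, with adjusted p-values of 0.951 to 1.00.

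The lipid lists did not pass the test either. PLIN2, the coat protein of lipid droplets, stood at 89.1, 208, 635 and 321 CPM (1.55 ± 0.61, adjusted p = 1.00), and 21 of 32 members of PA 1 and 52 of 69 of PA 2 held a UMI, against 1 of 5 and 40 of 52 in control. Both PA libraries were above both controls, as in hepatocyte-marker cells (159, 190, 373 and 254 CPM). HADHA and ACADVL, enzymes of mitochondrial fatty acid oxidation, stood at 267, 234, 235 and 180 CPM and at 178, 191, 173 and 176 CPM. Of the 30 genes on the fatty acid use list 12 were tested, none passed, and the median was 0.13. On the sterol synthesis list 13 of 18 genes were tested and none passed; all 13 differences were positive with a median of 0.62, and 6 had every PA library above every control library. Over all genes 2842 of 4848 differences were positive and 9.88% had that separation. Its HMGCS1, which makes the precursor of mevalonate, stood at 89.1, 81.1, 102 and 115 CPM, and FDFT1, the squalene synthase, at 0, 92.2, 110 and 185 CPM.

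Stress and growth lists held no called gene. HSPA5, the main chaperone of the endoplasmic reticulum, stood at 1158, 761, 926 and 984 CPM, and the 16 tested genes of its list had a median of 0.43. ATF4, the factor of the integrated stress response, stood at 89.1, 234, 165 and 95.9 CPM, and its 10 tested genes had a median of 0.39. B2M, the light chain of MHC class I, stood at 712, 731, 596 and 1359 CPM (median of 9 tested genes 0.41), and MT2A, a metallothionein, at 0, 87.4, 526 and 26.2 CPM. TOP2A, a gene of dividing cells, stood at 1069, 19.1, 94.1 and 12.2 CPM, the first being 12 UMIs in PA control 1. Of the TGF-beta and epithelial-mesenchymal list 8 genes were tested, with a median of -0.29 and FN1 at 445, 1014, 737 and 389 CPM.

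Apart from APOA2 on the hepatocyte list, the lists not yet described held no called gene. On the mucosal defence list 2 of 19 genes were tested, and both had every PA library above every control library, as did 9.88% of all genes. The complement gene C3 stood at 0, 9.53, 54.9 and 54.1 CPM (adjusted p = 0.439) and the protease inhibitor SLPI at 0, 19.1, 133 and 40.1 CPM. For both, the count of 0 in PA control 1 allows up to 267 CPM, more than either PA library held. The immediate early list had 12 of 16 genes tested with a median of 0.33, with JUND at 1603, 820, 894 and 1057 CPM, IER2 at 445, 931, 1326 and 1108 CPM and FOS at 267, 748, 965 and 797 CPM. These are rapid responders to many stimuli, cell dissociation included; JUND overlapped between the groups, and IER2 and FOS had both PA libraries above both controls. On the hypoxia and glycolysis list 9 of 18 were tested (median 0.84), with PGK1, an enzyme of glycolysis, at 89.1, 172, 290 and 209 CPM. Medians were 0.30 for fatty acid synthesis (8 of 12 tested), 0.45 for growth arrest and apoptosis (9 of 12), 0.22 for the cell cycle (5 of 17) and 0.61 for antioxidant genes (3 of 14). Among the cell type lists the median was 0.13 for simple epithelium (17 of 20 tested), -0.21 for stomach and pancreas (5 of 13), 1.78 for the VTCN1 and GABRP list (2 of 13), 0.61 for hepatocytes (5 of 20), -0.66 for mesenchyme (2 of 16) and 0.14 for neural genes (3 of 9). The endothelial and immune lists had 1 gene tested each, at -0.06 and 0.50, and the pluripotent and germ cell list 0.

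The difference of PA effects was tested across all genes against 2 other classes. Against hepatocyte-marker cells 11 of 11861 genes passed (0.0927%), 7 with a higher and 4 with a lower effect in members, and 383 had an unadjusted p under 0.05. Against collagen-positive cells 6 of 7746 passed (0.0775%), 5 higher and 1 lower, and 174 had an unadjusted p under 0.05. FABP7 and KRT15 passed in both. KRT15 was flat in hepatocyte-marker cells at 10.96, 16.3, 13.8 and 17.0 CPM and low in collagen-positive cells at 12.8, 5.11, 5.65 and 1.03 CPM. FABP7 was at or below 1.17 CPM in every library of hepatocyte-marker cells. The others higher against hepatocyte-marker cells were IGFL2-AS1, CXCL14, an epithelial chemokine with 0, 1, 25 and 4 UMIs in members, TMEM40, with 0, 0, 1 and 10 UMIs, S100A9 and CYP1A1. Of the 25 CXCL14 UMIs in PA 1, 19 lay in 1 cell.

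Genes with a lower effect in members rested on 1 or 2 cells of PA control 2. ZG16, a lectin of gut mucus, had 65 UMIs there, all in 1 cell, and 0 and 2 in the PA libraries, while it stood at 2.32, 16.3, 48.5 and 35.1 CPM in hepatocyte-marker cells. CCL4, a chemokine mostly of immune cells, had 29 UMIs in 1 cell, FCGBP, a mucus-associated protein, 15 in 1 cell, and HAMP, the iron-regulating hepcidin, 15 in 2 cells. Against collagen-positive cells the higher genes were KRT13, KRT5 and KRTDAP besides KRT15 and FABP7, all but FABP7 of squamous epithelium, and MMP7, a matrix metalloproteinase, was lower with 22 of 25 UMIs of PA control 2 in 1 cell. KRT13 stood at 712, 1.59, 39.2 and 131 CPM and KRT5 at 356, 0, 102 and 66.3 CPM in members, so that PA control 1 was above both PA libraries for each. In PA control 1 these were 8 UMIs of KRT13, 7 of them in 1 cell, and 4 UMIs of KRT5. KRTDAP had 1270 UMIs in PA 2, 611 of them in 1 cell, and 0 in the other 3 libraries. Without the members with KRT5 or KRT17, 10 genes passed against hepatocyte-marker cells, 8 of them among the 11, and 1 of the 6 passed against collagen-positive cells. Single libraries decided these calls too. Against hepatocyte-marker cells 0 of the 11 passed without PA control 2, 3 without PA 2, 7 without PA 1 and 10 without PA control 1. Against collagen-positive cells 0 of the 6 passed without PA control 2 or without PA 2, 3 without PA 1 and all 6 without PA control 1.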

How the data were processed

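The deposited files give UMI counts, whole numbers without normalization, for every gene and barcode of a library, per the file headers. The submitters' processing notes name bcl2fastq, Cell Ranger 3.0.2, Scanpy and GRCh38; whether counting used the strand is not given in the sources used here. Replicates were libraries. Counts were summed over members per library and tested with edgeR 4.0.16 (quasi-likelihood test, TMM factors, filterByExpr, Benjamini-Hochberg adjustment over all genes tested; R 4.3.3). Differences of effect came from an interaction fit over 8 sums with library as a block. Standard errors were derived from the fold change and its F statistic. Tests were tried on simulated data. DESeq2 1.42.0 was an alternative. Scrublet, run in scanpy 1.11.5, marked under 0.1% of cells at its automatic threshold and so did not work; doublets stayed in, and removing the highest scores at 0.8% per 1000 barcodes (3.24% to 7.26% of cells, 6 members) was an alternative. Positions come from GENCODE v44 by gene identifier, promoters from RefSeq.

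The members and the 27 gene lists were chosen with earlier results of these data known. Named genes were, per direction, the 12 called genes of largest fold change, filled up by smallest p; 5 per direction for differences of effect; the 20 leading profile genes; and per list its called members or otherwise up to 3 of highest CPM, of which a part is printed; 1 profile gene is not reported here. Gate, mitochondrial and Y-linked genes and XIST were not named. SOD2, CCN1 and CCN2 had no single match and were left out. With 2 libraries a group, replicate numbers could not be shown to pair libraries.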

Additional observations from a re-analysis of the deposited data

Results flagged for a closer look

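Genes whose PA effect differed between cell classes in edgeR's interaction test are given here by the log2 difference, KRT7 members minus the other class. Against hepatocyte-marker cells it was -6.33 for ZG16, -6.45 for CCL4, 6.35 for IGFL2-AS1, 4.05 for KRT15, -5.60 for HAMP, 5.54 for CXCL14, 3.28 for S100A9, 3.34 for CYP1A1, 11.46 for TMEM40, -11.37 for FCGBP and 5.41 for FABP7. Against collagen-positive cells it was 6.14 for KRT13, 5.52 for KRT15, 10.18 for KRTDAP, 3.64 for KRT5, 5.44 for FABP7 and -3.32 for MMP7. For TMEM40, KRTDAP and FCGBP 1 group of members was at 0 UMIs, so that the fitted size depends on the prior count and is no estimate of a fold. CYP1A1, an enzyme induced by aryl hydrocarbon receptor ligands, stood at 0, 9.53, 0 and 55.8 CPM in members of PA control 1, PA control 2, PA 1 and PA 2.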

How the results depend on the processing

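The 10 genes called by PA in members became 1 with DESeq2, 6 with KRT7 at 3 or more UMIs, 19 with the gate on thinned cells (3 libraries, none of PA control 1; S100A9, PHGR1, SPP1 and AKAP12 of the 10 among them) and 3 without the KRT5 or KRT17 members. No low-count filter gave 13 with 4 of the 10 among them, the stricter cell filter 14 with 7, doublet removal 9 with 9 and RLE factors 10 with 10. With the replicate block 11 were called, 7 of the 10 among them, without KRT15 (adjusted p = 0.0640), IGFL2-AS1 (0.117) and AKAP12 (1.00). The deviations of same-numbered libraries correlated at 0.0551 across genes. Leaving out 1 library gave 5 to 41 called genes, 6 to 115 for the difference from hepatocyte-marker cells and 2 to 151 for that from collagen-positive cells, where without the KRT5 or KRT17 members it was 1. A lone library is then assumed to vary like the others, and without PA control 2 the control is 5 cells. The difference in share turned to -0.0570 points with the stricter cell filter (1000 genes, 10% mitochondrial) and ran from -0.279 to 0.471 points as each library was left out. Signs of named genes turned without PA control 2 for IGFL2-AS1, SPRR2F, SPRR3 and CCND2, and without PA control 1 for KRT17 and KRT6A. As each library was left out, IGFL2-AS1 ran from -0.015 to 8.59 (log2), SPRR2F from -0.10 to 4.88, SPRR3 from -0.32 to 7.31, KRT17 from -3.03 to 0.47, KRT6A from -4.12 to 7.39 and CCND2 from -1.75 to 0.93. Without PA control 1 the control held 0 UMIs of IGFL2-AS1, SPRR3 and KRT6A, so that their fitted sizes there are no estimate of a fold. Signs also turned with the stricter filter for KRT17 (0.42) and KRT6A (2.54), and on thinned cells for KRT6A (1.302). The cause was not tested. Depth limits all of these: PA control 1 members held 11229 UMIs.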
